A study of Mus musculus with 10 samples.

Results

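Kidneys of mice labelled G2-APOL1 (2 libraries) were compared with all 6 reference kidneys of the same series, which carry the labels wild type (single mutant) (3 libraries) and Control (3 libraries). Libraries were chosen by the genotype label alone, so the comparison uses 8 of 10 libraries, and the 2 kidneys labelled with the G1 allele were left out. According to the series title, variants of the human gene APOL1 were expressed in mouse podocytes. Labels give neither the promoter or inducer of the transgene, nor the sex or age of the mice, nor any meaning for the words single mutant, and no treatment is named for any group. Whether the libraries stem from different mice is not stated either. The p-values below thus measure the spread between libraries, which may be partly technical. The human APOL1 transcript was not analysed here, and the genotype of the 2 G2 kidneys was therefore not checked against its expressed transgene.

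APOL1 is a human apolipoprotein that circulates with high-density lipoprotein and also acts inside cells, where it can form ion channels in membranes. Its G2 allele is a known risk allele for kidney disease. Podocytes are the epithelial cells whose foot processes and slit diaphragms cover the glomerular capillary, and they make up a small part of the RNA of a whole kidney, most of which comes from tubules. When the glomerular filter is damaged, injured tubule cells typically lose transport and oxidative metabolism genes, express injury markers and chemokines, and are accompanied by leukocytes and matrix-forming stromal cells. In bulk tissue, fewer cells of a type and less RNA per cell cannot be told apart, which holds for every list of genes below.

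The 8 libraries held between 27596391 and 34815153 counts, with 29126336 and 34815153 for G2. Levels are given as CPM, the reads of a gene per 1000000 reads of the library, with library sizes scaled by the TMM method. A principal component that took 43.4% of the variance set both G2 libraries apart from all reference libraries, and the next, with 20.3%, divided the reference libraries by the form of their titles and not by genotype label. Titles that begin with NA_ belong to wild type (single mutant) replicate 3 and Control replicates 1 and 2. The other 3 reference libraries have other titles. Clock genes followed this division: Arntl, the clock activator also called Bmal1, had a mean of 23.6 CPM in the NA_ libraries and 2.46 CPM in the others, and its target Dbp had 15.9 and 112 CPM. In the G2 libraries Arntl was at 5.15 and 4.31 CPM and Dbp at 70.5 and 82 CPM, between the 2 sets for both genes. What the titles stand for is not given, and values for each set are given beside some of the results they touch, not all. All 8 libraries expressed genes of the Y chromosome, Ddx3y at 34.9 and 40.03 CPM in G2 and 45.4 to 50.7 CPM in the reference. Kidney identity was checked with defining markers, among them Umod of the thick ascending limb at 2987 and 3221 CPM in G2 and 2609 to 3905 CPM in the reference, and Kap, an abundant proximal tubule transcript of mouse kidney, at 29845 and 13381 CPM in G2 and 14969 to 40201 CPM in the reference.

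Of 17463 genes tested with edgeR's quasi-likelihood test and Benjamini-Hochberg adjustment, 2631 were higher in G2 kidneys (15.1% of those tested) and 2257 were lower (12.9%) at an adjusted p under 0.05. A change of at least 2-fold was found for 1655 of the higher genes (9.48%) and 540 of the lower genes (3.09%). Both G2 libraries lay above all 6 reference libraries for 3624 genes (20.8%) and below all of them for 3419 (19.6%). Against wild type (single mutant) alone, 1832 genes were higher (10.7%) and 1106 lower (6.47%), and against Control alone 1548 were higher (9.05%) and 962 lower (5.63%). Among the 4888 genes called in the pooled comparison, 4874 had the same sign of fold change against both labels. Both labels make up the pooled reference and share the G2 libraries, so this shared sign is largely set by the selection. Of the called genes, 1218 higher (6.97% of genes tested) and 740 lower genes (4.24%) were also called against each label separately. That last pair of counts rests on single libraries, since it fell to 0 and 0 without Control replicate 1 and to 6 and 2 without G2 replicate 1. Between the reference labels edgeR's quasi-likelihood test called 0 genes, with 568 at an unadjusted p under 0.05, and DESeq2 called 2 higher and 8 lower in wild type (single mutant). The division by title was larger, with 141 genes higher (0.807%) and 222 lower (1.27%) in the NA_ libraries. Scaling moved the balance: with library totals in place of TMM factors the median log2 fold change of all genes went from 0.00 to 0.28, and the calls became 5112 higher (29.3% of genes tested) and 936 lower (5.36%), so that 84.5% of calls were rises, against 53.8% with TMM. With 1 G2 library in place of 2 the counts fell to 1592 higher and 1142 lower without replicate 1, and to 1899 and 1332 without replicate 2. Where a list's larger count, higher or lower, moved by over 1.5 times without a single library or with library totals, this is given beside it. The smaller count of a list is less firm: of 26 lists in which it was 1 or more (at most 4), 21 had it move by over 1.5 times without some single library, and 15 had it fall to 0. Fold changes below are on the TMM scale, and gene groups whose direction depends on this choice are named where they are described.

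**Figure D1:**
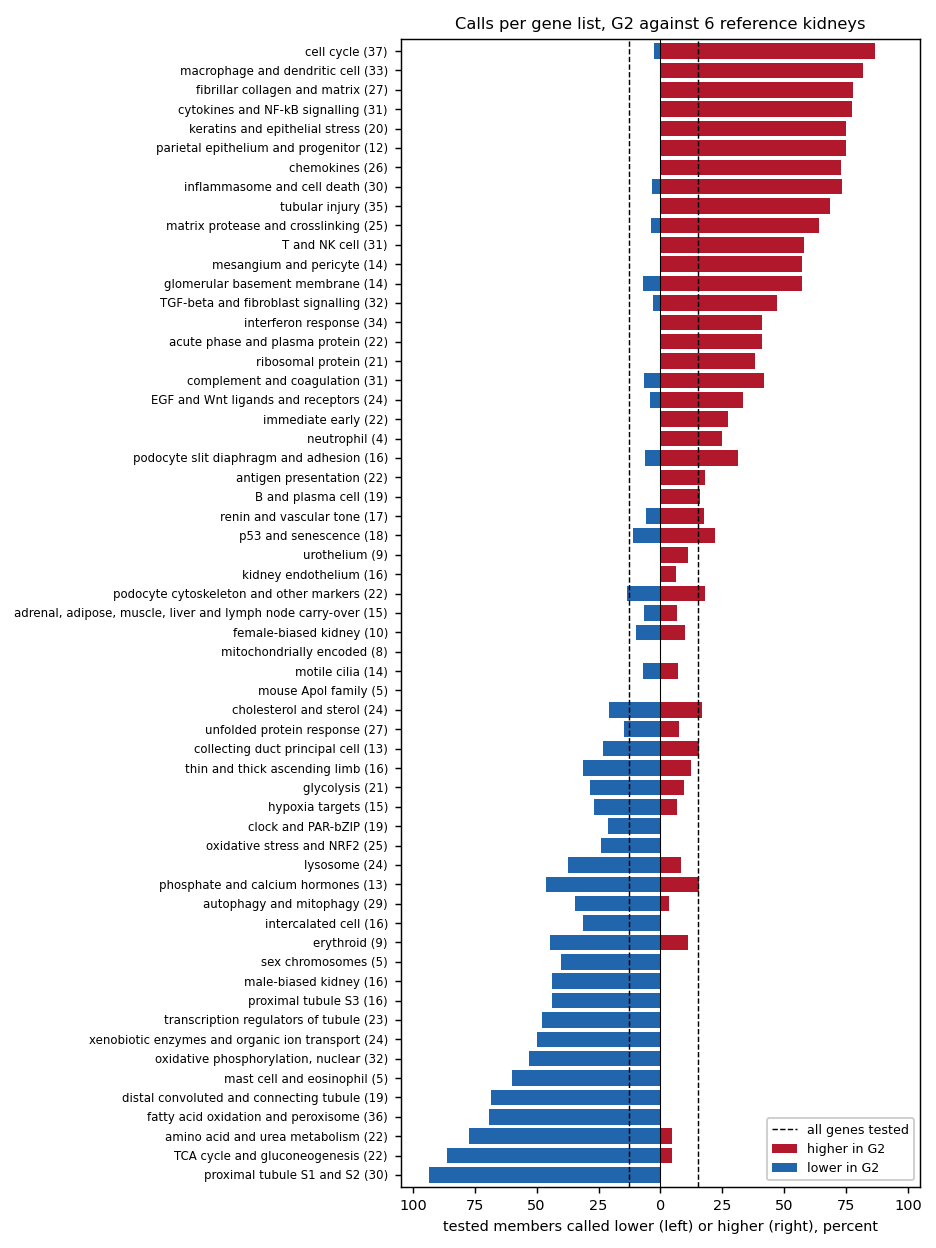
Percent of the tested members of 59 gene lists that were called higher (bars to the right) or lower (bars to the left) in the 2 G2 kidneys against the 6 reference kidneys, with the number tested in parentheses. Dashed lines mark the share over all 17463 genes tested, 15.1% higher and 12.9% lower; macrophage, cell cycle, chemokine, cytokine and matrix lists reach far to the right, and proximal tubule, citric acid cycle and amino acid lists far to the left.

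Among genes with at least 1 CPM on average over the 8 libraries that were called against both labels and did not overlap between the groups, the largest rises were Il1f6, Lcn2, Meltf, Timp1, Gabrp, Ccl2, Foxj1, Havcr1, Serpina10, Tnfsf8, Cxcl2 and Il1rn. Lcn2 (chr2:32384633-32388252 in GRCm38), which encodes the secreted iron-siderophore binder NGAL that marks tubular injury, was at 115 and 189.6 CPM in G2 and 2.24 to 4.43 CPM (median 3.0) in the reference (log2 fold change 5.62, SE 0.25, adjusted p = 6.53e-05). Havcr1 (chr11:46735080-46779578), the kidney injury molecule of proximal tubule cells, was at 148 and 52.2 CPM in G2 and 2.06 to 5.27 CPM (median 3.08) in the reference (log2 fold change 4.96, SE 0.38, adjusted p = 0.000161). In both genes the lower G2 library exceeded the highest reference library by a wide margin, and the G2 library with more Lcn2 was the one with less Havcr1. Il1f6, a cytokine of the interleukin-1 family now called IL-36 alpha, was near silent in the reference, with 5 counts over the 6 libraries, and reached 5.68 and 2.73 CPM in G2 (log2 fold change 6.98, SE 0.55, adjusted p = 0.000169). Ccl2 (chr11:82035571-82037453), the chemokine that draws monocytes, was at 34.1 and 20.8 CPM in G2 and 0.334 to 1.62 CPM (median 0.705) in the reference (log2 fold change 5.12, SE 0.42, adjusted p = 0.000182). Timp1, an inhibitor of matrix metalloproteases, was at 47.8 and 26.2 CPM in G2 and 0.367 to 2.9 CPM (median 0.667) in the reference (log2 fold change 5.20, SE 0.59, adjusted p = 0.000652). Foxj1, the regulator of motile cilia, stood at 19.6 and 6.62 CPM in G2 and 0.27 to 0.567 CPM (median 0.354) in the reference (log2 fold change 5.0, SE 0.39, adjusted p = 0.000163), and 12 of the 14 tested motile cilia genes passed in neither direction. The axonemal dynein gene Dnah9 moved the other way, with 0.534 and 0.259 CPM in G2 and 1.21 to 2.11 CPM in the reference (log2 fold change -1.97, SE 0.37, adjusted p = 0.00529). The remaining genes of this group had log2 fold changes of 5.29 for Meltf, a transferrin-family protein of membranes, 5.19 for Gabrp, a GABA receptor subunit, 4.91 for Serpina10, an inhibitor of coagulation proteases, 4.91 for the CD30 ligand Tnfsf8, 4.61 for the neutrophil-attracting Cxcl2, and 4.54 for Il1rn, the antagonist of the interleukin-1 receptor. A call against each reference label alone and the lack of overlap were required for the choice of these 12 genes. None of them lost its call in the other alternatives tried, including each title set alone. Only Lcn2, Havcr1 and Serpina10 among these 12 had a reference mean of at least 1 CPM. The others reached 1 CPM on average only through the G2 libraries. Their reference means were 0.0301 CPM for Il1f6, 0.127 for Tnfsf8, 0.156 for Cxcl2, 0.193 for Meltf and 0.237 for Gabrp. Those of Il1rn, Foxj1, Ccl2 and Timp1 were 0.387, 0.402, 0.785 and 0.998 CPM.

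**Figure D2:**
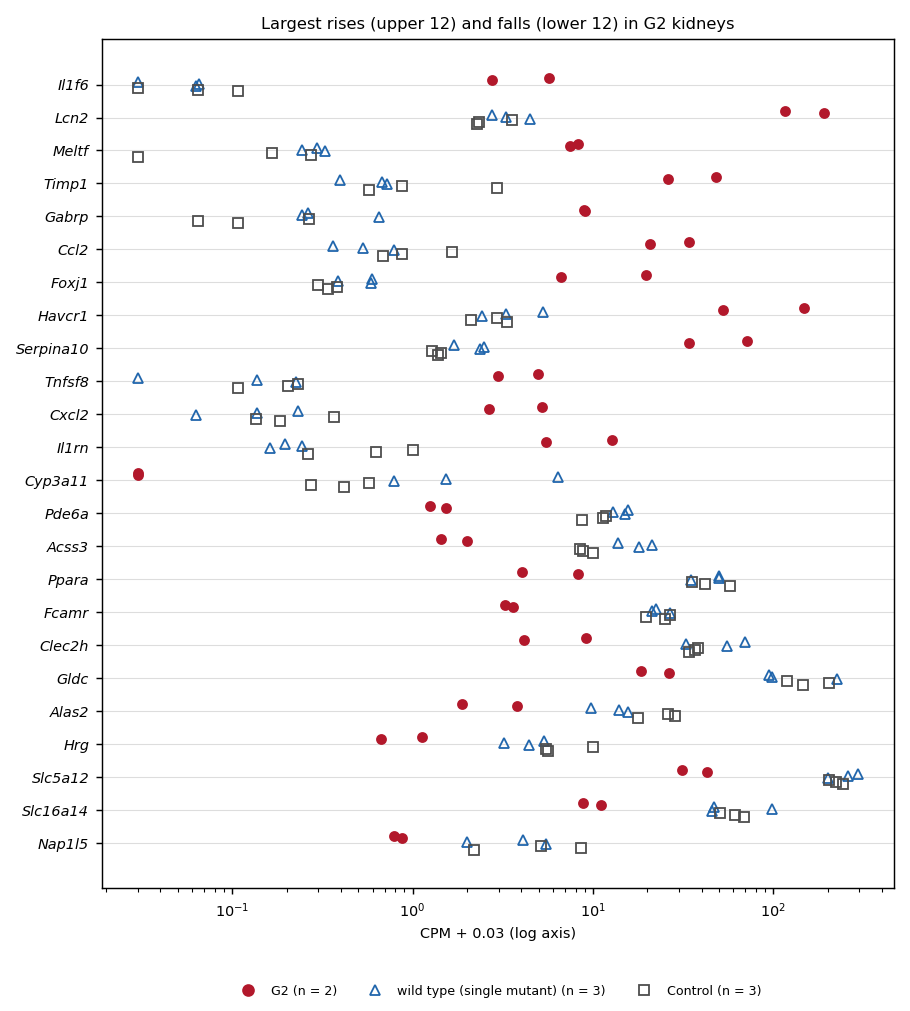
CPM in each of the 8 libraries (log axis, with 0.03 CPM added so that libraries without a count can be drawn) for the 12 largest rises and 12 largest falls named by the rule. Filled circles are the 2 G2 libraries, open triangles wild type (single mutant) and open squares Control. The rule admits only genes whose G2 circles lie outside the range of the reference symbols.

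The largest falls by the same rule were Cyp3a11, Pde6a, Acss3, Ppara, Fcamr, Clec2h, Gldc, Alas2, Hrg, Slc5a12, Slc16a14 and Nap1l5. Ppara (chr15:85734983-85802819), the nuclear receptor that drives fatty acid oxidation genes, was at 4.02 and 8.24 CPM in G2 and 34.9 to 57.5 CPM (median 45.7) in the reference (log2 fold change -2.86, SE 0.33, adjusted p = 0.000675). Slc5a12, a sodium-coupled lactate transporter of the proximal tubule, was at 31.3 and 42.8 CPM in G2 and 201 to 296 CPM (median 231) in the reference (log2 fold change -2.68, SE 0.21, adjusted p = 0.000161). For both genes all 6 reference libraries lay well above the 2 G2 libraries. Gldc, the glycine decarboxylase of mitochondria, was at 18.4 and 26.2 CPM in G2 and 93.9 to 224 CPM (median 132) in the reference (log2 fold change -2.72, SE 0.42, adjusted p = 0.00211). Acss3, a mitochondrial short-chain acyl-CoA synthetase, was at 1.41 and 1.98 CPM in G2 and 8.42 to 21.2 CPM (median 11.9) in the reference (log2 fold change -2.97, SE 0.46, adjusted p = 0.00215). Fcamr, a receptor for IgA and IgM, stood at 3.23 and 3.58 CPM in G2 and 19.5 to 26.6 CPM (median 23.6) in the reference (log2 fold change -2.78, SE 0.17, adjusted p = 0.000106). Cyp3a11, a cytochrome P450 of xenobiotic metabolism best known from liver, had no count in either G2 library and 290 counts over the reference, at least 41.7-fold lower when 3 counts are allowed over the 2 G2 libraries. Its reference level ran from 0.245 to 6.4 CPM, and the call (adjusted p = 0.0459) was lost in 6 alternatives. Albumin (Alb), the main transcript of liver, was at 1.6 and 1.67 CPM in G2 and 8.55 to 194 CPM in the reference, without passing the test (adjusted p = 0.0714), and the part of liver carry-over in the Cyp3a11 values was not tested. The other members had log2 fold changes from -3.19 for Pde6a, a phosphodiesterase subunit known from rod cells, through -2.71 for the plasma protein Hrg, to -2.50 for Nap1l5, whose call was lost in 2 leave-one-out fits.

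Most injury markers of tubule epithelium rose. Of 35 tested members 24 were higher and 0 lower, where 15.1% of all genes tested were higher, and the median log2 fold change was 1.84 against 0.00 over all genes. Vcam1, an adhesion molecule of injured tubule and endothelium, was at 240.2 and 139.7 CPM in G2 and 6.01 to 14.9 CPM (median 13.2) in the reference (log2 fold change 3.95, SE 0.29, adjusted p = 0.000155). Spp1, which encodes the secreted phosphoprotein osteopontin, was already abundant in the reference and was at 6697 and 3231 CPM in G2 and 459 to 928 CPM (median 648) in the reference (log2 fold change 2.94, SE 0.28, adjusted p = 0.000332). Sox9, a transcription factor of regenerating tubule cells, went from near absence to 16.7 and 6.4 CPM in G2, with 0.232 to 1.05 CPM (median 0.737) in the reference (log2 fold change 4.09, SE 0.52, adjusted p = 0.000988). Cd44, a hyaluronan receptor of activated parietal and tubule cells, stood at 70.6 and 31.2 CPM in G2 and 1.97 to 4.63 CPM (median 2.84) in the reference (log2 fold change 4.11, SE 0.35, adjusted p = 0.000207). For each of these the ranges did not overlap, and G2 replicate 1 was higher than replicate 2. S100a11, a calcium-binding protein, rose with a log2 fold change of 1.84. Cxcl1 was at 12.7 and 6.31 CPM in G2 and 0.394 to 6.37 CPM in the reference, so the lower G2 library fell within the reference range, and it did not pass (adjusted p = 0.0549). Hmox1, the heme oxygenase, was at 60.1 and 42.1 CPM in G2 and 34.4 to 51.1 CPM in the reference and did not pass either (adjusted p = 0.228). Keratins and genes of stressed epithelium were higher for 15 of 20 members, with 0 lower, a median of 1.45, and 9 higher without G2 replicate 2. Krt20, a keratin normally found in urothelium and intestine, was at 15.6 and 12.8 CPM in G2 and 0.525 to 2.74 CPM (median 0.971) in the reference (log2 fold change 3.51, SE 0.50, adjusted p = 0.00157). Krt8, the general keratin of simple epithelia, was at 250.1 and 215 CPM in G2 and 102 to 137 CPM (median 123) in the reference (log2 fold change 0.96, SE 0.13, adjusted p = 0.00122). Sprr2f, a cornified envelope protein of squamous and urinary epithelium, had 2 counts over the 6 reference libraries and 125 over the 2 G2 libraries, a ratio of 145 with an exact 95% counting interval of 39.3 to 1211.

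The best-known podocyte genes did not pass the test. Among 16 slit diaphragm and adhesion genes 5 were higher (31.2%) and 1 lower. Among 22 genes of the podocyte cytoskeleton and other podocyte markers 4 were higher (18.2%) and 3 lower (13.6%), near the shares over all genes tested, 15.1% and 12.9%. The median log2 fold changes were 0.31 and 0.11. Without G2 replicate 2 the slit diaphragm list had 2 higher, and without wild type (single mutant) replicate 3 the cytoskeleton list had 7. Nphs1 (nephrin), the core protein of the slit diaphragm, was at 9.39 and 9.04 CPM in G2 and 5.71 to 31.1 CPM (median 14) in the reference. It did not pass (adjusted p = 0.343), and both G2 libraries lay within the reference range. That range was itself wide, with a mean of 20.9 CPM in the NA_ libraries and 11 CPM in the others. The log2 fold change of Nphs1 was -1.16 against the former and -0.23 against the latter. Podxl, the sialomucin of the podocyte surface, was at 132 and 119 CPM in G2 and 92.2 to 241 CPM in the reference. Wt1, the podocyte transcription factor, was at 4.96 and 4.5 CPM in G2 and 2.62 to 9.68 CPM in the reference. The actin-binding protein Synpo was at 50.4 and 36.9 CPM in G2 and 22 to 59.7 CPM in the reference. None of these 3 passed, and their groups overlapped. Most of the members that rose are known from many cell types besides podocytes. Fat1, a giant cadherin, was at 112 and 112 CPM in G2 and 46.3 to 65.1 CPM (median 49.5) in the reference (log2 fold change 1.07, SE 0.13, adjusted p = 0.000883). Kirrel, a nephrin relative, was at 23.2 and 25.5 CPM in G2 and 7.48 to 13.6 CPM in the reference (log2 fold change 1.27, SE 0.22, adjusted p = 0.00341). Nes, the intermediate filament nestin, was at 70.5 and 49.5 CPM in G2 and 16.6 to 25.9 CPM in the reference (log2 fold change 1.57, SE 0.19, adjusted p = 0.000822). Myh9, the heavy chain of non-muscle myosin IIA, was at 445 and 483 CPM in G2 and 198 to 252 CPM in the reference (log2 fold change 1.08, SE 0.11, adjusted p = 0.000475). Tcf21, a transcription factor of podocytes and stroma, was at 34.3 and 29.4 CPM in G2 and 7.54 to 16.7 CPM in the reference (log2 fold change 1.68, SE 0.27, adjusted p = 0.00238). Clic5, which anchors podocyte foot processes and also occurs in endothelium, was lower, with 61.1 and 63.7 CPM in G2 and 87.2 to 132 CPM in the reference (log2 fold change -0.89, SE 0.18, adjusted p = 0.0066). Vegfa, the endothelial growth factor made by podocytes and tubules, was lower with 101 and 106 CPM in G2 and 134 to 196 CPM in the reference (log2 fold change -0.76, SE 0.14, adjusted p = 0.00541). Against Control alone neither kept its call (adjusted p = 0.0581 and 0.0577).

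**Figure D3:**
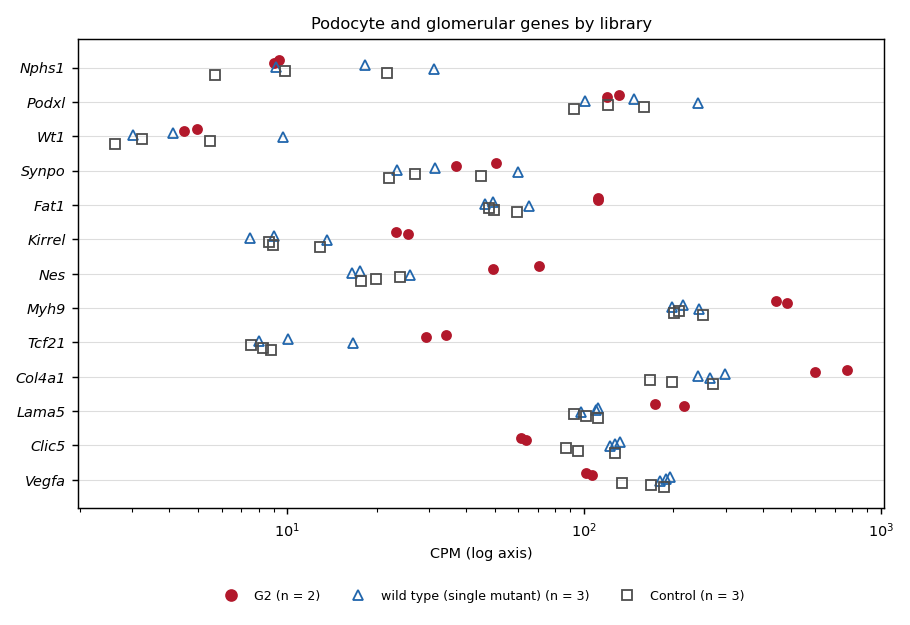
CPM in each of the 8 libraries (log axis) for 13 podocyte and glomerular genes, with filled circles for G2, open triangles for wild type (single mutant) and open squares for Control. Nphs1, Podxl, Wt1 and Synpo overlap between the groups, while Fat1, Kirrel, Nes, Myh9, Tcf21, Col4a1 and Lama5 lie above and Clic5 and Vegfa below all reference libraries in both G2 libraries.

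Of 14 glomerular basement membrane genes 8 were higher and 1 lower (median 0.69), and the number lower was 0 without any 1 library other than G2 replicate 2 or Control replicate 2. The members that rose, such as Agrn, Nid1 and Lamc1, also belong to other basement membranes (1.09, 1.20 and 0.88). Col4a1, which encodes the widespread alpha-1 chain of collagen IV, was at 772 and 603 CPM in G2 and 167 to 298 CPM (median 254) in the reference (log2 fold change 1.52, SE 0.20, adjusted p = 0.00116). Lama5, the laminin alpha-5 chain, was at 173 and 217 CPM in G2 and 92.7 to 112 CPM in the reference (log2 fold change 0.90, SE 0.11, adjusted p = 0.000852). Of the chains of the mature glomerular network, Col4a3 was at 86.4 and 165 CPM in G2 and 102 to 236 CPM in the reference and did not pass (adjusted p = 0.635), and Col4a4 was at 159.9 and 239 CPM in G2 and 246 to 326 CPM in the reference, a fall (adjusted p = 0.0452) that did not pass against either label alone. Differences between chains were not tested. Markers of parietal epithelium and progenitors were higher for 9 of 12 members with 0 lower, Cd44 and Sox9 among them, and Pax2 was at 23.1 and 84.8 CPM in G2 and 21.4 to 52.2 CPM in the reference without passing. Mesangium and pericyte genes were higher for 8 of 14 with 0 lower, and for 3 without G2 replicate 1 and 13 with library totals, led by Pdgfrb, the receptor of pericytes, at 116 and 79.6 CPM in G2 and 24.8 to 47.6 CPM in the reference (log2 fold change 1.52, SE 0.22, adjusted p = 0.00173). Among 16 endothelial markers 1 passed, Nos3 (endothelial nitric oxide synthase), at 9.8 and 13.3 CPM in G2 and 6.33 to 8.96 CPM in the reference (adjusted p = 0.0365), a call lost in 11 alternatives. The number that passed was 6 with library totals, 4 without wild type (single mutant) replicate 3, 2 without G2 replicate 1, and 0 without G2 replicate 2, wild type (single mutant) replicates 1 or 2, or Control replicates 1 or 3. Pecam1 was at 58.2 and 87.1 CPM in G2 and 42.1 to 74.4 CPM in the reference. Kdr was at 35.8 and 38.8 CPM in G2 and 31.4 to 75.2 CPM in the reference, and the groups also overlapped for Flt1, at 33.7 and 63.1 CPM in G2 and 38.6 to 69.99 CPM in the reference.

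Matrix genes rose broadly. Fibrillar collagens and other matrix proteins were higher for 21 of 27 members, with 0 lower and a median log2 fold change of 1.52. Col1a1, the main chain of type I collagen, was at 454 and 274 CPM in G2 and 24.6 to 49.8 CPM (median 33.4) in the reference (log2 fold change 3.40, SE 0.26, adjusted p = 0.000165). Fn1, fibronectin, was at 341 and 219 CPM in G2 and 29.99 to 56.8 CPM (median 39.6) in the reference (log2 fold change 2.75, SE 0.22, adjusted p = 0.000178). No reference library reached the lower of the G2 libraries in these genes. Col3a1, the fibrillar collagen of loose tissue, was at 479.8 and 374 CPM in G2 and 37.9 to 80.1 CPM in the reference (log2 fold change 2.80, SE 0.27, adjusted p = 0.000355). The log2 fold changes of Col12a1 and Col5a2 were 2.56 and 2.36. Matrix proteases and crosslinking enzymes were higher for 16 of 25 members and lower for 1. Mmp14, a membrane-bound collagenase, was at 60.9 and 38.6 CPM in G2 and 5.55 to 8.81 CPM in the reference (log2 fold change 2.82, SE 0.20, adjusted p = 0.000155). Lox, which crosslinks collagen, was at 31.4 and 29.7 CPM in G2 and 3.07 to 6.83 CPM in the reference (log2 fold change 2.82, SE 0.26, adjusted p = 0.000287). The member that fell was Timp3, a protease inhibitor bound to matrix, at 343 and 519 CPM in G2 and 835 to 1219 CPM in the reference (log2 fold change -1.21, SE 0.22, adjusted p = 0.00392), opposite to its relative Timp1. Signalling genes of fibrosis were higher for 15 of 32 with 1 lower. Tgfb1, the central profibrotic ligand, was at 45.8 and 29 CPM in G2 and 9.52 to 14.3 CPM in the reference (log2 fold change 1.62, SE 0.18, adjusted p = 0.00059). The log2 fold change of its relative Tgfb2 was 1.76 (SE 0.19). The transcription factor Runx1 was at 19 and 12.7 CPM in G2 and 1.17 to 2.1 CPM in the reference (log2 fold change 3.15, SE 0.25, adjusted p = 0.000178). Acta2, smooth muscle actin, was at 159 and 98.5 CPM in G2 and 46.4 to 94.3 CPM in the reference (log2 fold change 0.88, SE 0.24, adjusted p = 0.0254), and did not pass against Control alone (adjusted p = 0.0925).

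Chemokine genes were higher for 19 of 26 tested members and lower for 0, with a median of 2.15, and 18 were higher against wild type (single mutant), 11 against Control and 11 without G2 replicate 1. Besides Ccl2, Ccl20, which recruits lymphocytes and dendritic cells through CCR6, went from at most 0.203 CPM in any reference library to 2.98 and 2.24 CPM (log2 fold change 5.15, SE 0.58, adjusted p = 0.000609). Ccl5, a chemokine of T cells and macrophages, was at 25.4 and 10.1 CPM in G2 and 0.644 to 2.83 CPM in the reference (log2 fold change 3.44, SE 0.52, adjusted p = 0.00194). Cytokines and NF-kB signalling genes were higher for 24 of 31 with 0 lower. Csf1, the growth factor of macrophages, was at 51.9 and 37.5 CPM in G2 and 8.16 to 11.7 CPM (median 10.2) in the reference (log2 fold change 2.15, SE 0.15, adjusted p = 0.00013). Lif, a cytokine of the interleukin-6 family, was at 5.24 and 4.66 CPM in G2 and 0.386 to 0.676 CPM in the reference (log2 fold change 3.43, SE 0.24, adjusted p = 0.000133). Relb, an NF-kB subunit of the non-canonical pathway, was at 35.8 and 23.1 CPM in G2 and 5.26 to 7.17 CPM in the reference (log2 fold change 2.24, SE 0.17, adjusted p = 0.000161). Nfkb2, its partner subunit, was at 66.2 and 44 CPM in G2 and 16.6 to 20.9 CPM in the reference (log2 fold change 1.58, SE 0.15, adjusted p = 0.000283). Tnf was low throughout, at 1.6 and 0.965 CPM in G2 and 0.10 to 0.394 CPM in the reference (log2 fold change 2.41, SE 0.45, adjusted p = 0.0049). Il1b was low as well, at 4.02 and 1.29 CPM in G2 and 0.133 to 0.91 CPM in the reference (adjusted p = 0.0187), and did not pass against either label alone.

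Promoters of these genes were searched for the letters GGGNNTTTC on both strands, a short form of the kappaB element bound by NF-kB factors, in windows from 250 bases before to 50 bases after the start of transcription (RefSeq, GRCm38.p6). Matches were found in 5 of 18 chemokine promoters (27.8%, Wilson 95% interval 12.5 to 50.9%) and in 8 of 29 of the cytokine and NF-kB list (27.6%). Over all 27025 promoters the share was 4.46%, over all tested genes 4.3%, and over genes called higher 5.83%. Of 7 motifs searched, others were as frequent or nearly so in these lists. The AP-1 letters TGANTCA were in 4 of 18 and 9 of 29 promoters, against 5.46% over tested genes. GAAANNGAA, the letters of the interferon element ISRE, were in 5 of 18 and 4 of 29, against 7.57%. GGGNNTTTC was also in 5 of 26 promoters of the inflammasome and cell death list. A match is a run of letters and not a shown binding site, and these shares were not tested. The 250 bases before the start of 3 called genes of these lists, those with the lowest p that hold a match, show it in capitals, 5′ to 3′ on the strand of the gene.
Csf1, minus strand, chr3:107760470-107760719: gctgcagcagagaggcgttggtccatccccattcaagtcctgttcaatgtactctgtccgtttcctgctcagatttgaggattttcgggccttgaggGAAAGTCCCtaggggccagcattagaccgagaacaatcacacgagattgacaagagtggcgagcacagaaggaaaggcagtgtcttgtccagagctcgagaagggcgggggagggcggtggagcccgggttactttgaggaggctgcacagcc
Nfkb2, plus strand, chr19:46304487-46304736: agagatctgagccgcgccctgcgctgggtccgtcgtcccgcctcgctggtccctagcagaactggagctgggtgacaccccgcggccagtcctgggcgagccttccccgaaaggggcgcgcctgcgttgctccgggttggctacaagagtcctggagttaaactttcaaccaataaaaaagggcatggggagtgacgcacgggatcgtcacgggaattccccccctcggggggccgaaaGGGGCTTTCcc
Cxcl2, plus strand, chr5:90903649-90903898: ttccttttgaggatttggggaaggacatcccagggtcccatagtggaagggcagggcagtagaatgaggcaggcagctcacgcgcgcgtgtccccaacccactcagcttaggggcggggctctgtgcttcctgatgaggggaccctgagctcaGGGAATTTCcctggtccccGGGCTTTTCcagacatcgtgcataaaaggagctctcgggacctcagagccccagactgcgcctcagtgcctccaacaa

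Macrophage and T cell markers were higher in G2 kidneys, while few of the B and plasma cell genes passed. Macrophage and dendritic cell genes were higher for 27 of 33 members with 0 lower, and the median log2 fold change was 2.51. Lyz2, lysozyme of myeloid cells, was at 426 and 278 CPM in G2 and 20.1 to 44.6 CPM (median 31.3) in the reference (log2 fold change 3.45, SE 0.26, adjusted p = 0.000161). Cd14, the co-receptor for lipopolysaccharide, had a log2 fold change of 3.34 (SE 0.25). Mrc1, the mannose receptor, was at 28.4 and 21.1 CPM in G2 and 3.45 to 5.94 CPM in the reference (log2 fold change 2.28, SE 0.20, adjusted p = 0.000241). Cd163, a marker of some resident macrophages, was at 0.722 and 1.77 CPM in G2 and 0.328 to 1.93 CPM in the reference and did not pass. T and NK cell genes were higher for 18 of 31 with 0 lower, and for 9 without G2 replicate 1. Cd4, of helper T cells, was at 11 and 6.31 CPM in G2 and 0.787 to 1.68 CPM in the reference (log2 fold change 2.72, SE 0.28, adjusted p = 0.000475). Cd3g had a log2 fold change of 2.29 (SE 0.34). Cd8a, Gzma, Prf1 and Ncr1, markers of cytotoxic cells, did not pass (log2 fold changes 1.16, -0.18, -0.24 and 0.38). Of 13 neutrophil genes 4 had enough counts to be tested and 1 passed (3 without Control replicate 2 or with library totals, 2 without wild type (single mutant) replicate 3). This was the receptor Csf3r, at 4.24 and 2.99 CPM in G2 and 0.644 to 1.22 CPM in the reference (log2 fold change 2.06, SE 0.28, adjusted p = 0.00129). S100a8 was at 0.659 and 0.377 CPM in G2 and 0.0772 to 0.328 CPM in the reference and did not pass (adjusted p = 0.0669). B and plasma cell genes were higher for 3 of 19 (15.8%, near the share over all genes), and for 1 without either G2 library or without wild type (single mutant) replicate 2, with a median log2 fold change of -0.50. Igkc, the kappa light chain, was at 98.2 and 24.8 CPM in G2 and 6.34 to 516 CPM in the reference. Mast cell proteases were lower in G2 in the pooled comparison, at very low levels. Against either reference label alone, 0 genes of the mast cell and eosinophil list were called. The summed level of that list was 5.06 and 4.07 CPM in G2 and 3.43 to 194 CPM in the reference. Cma1 had 0 counts in G2 and 46 in the reference, at least 6.61-fold lower against 3 counts, and Mcpt4 had 1 and 51, a ratio of reference to G2 of 22 with an exact 95% counting interval of 3.77 to 885. Of the 3 mast cell calls, 0 were left without either G2 library or without wild type (single mutant) replicate 2, and 1 without Control replicate 1.

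**Figure D4:**
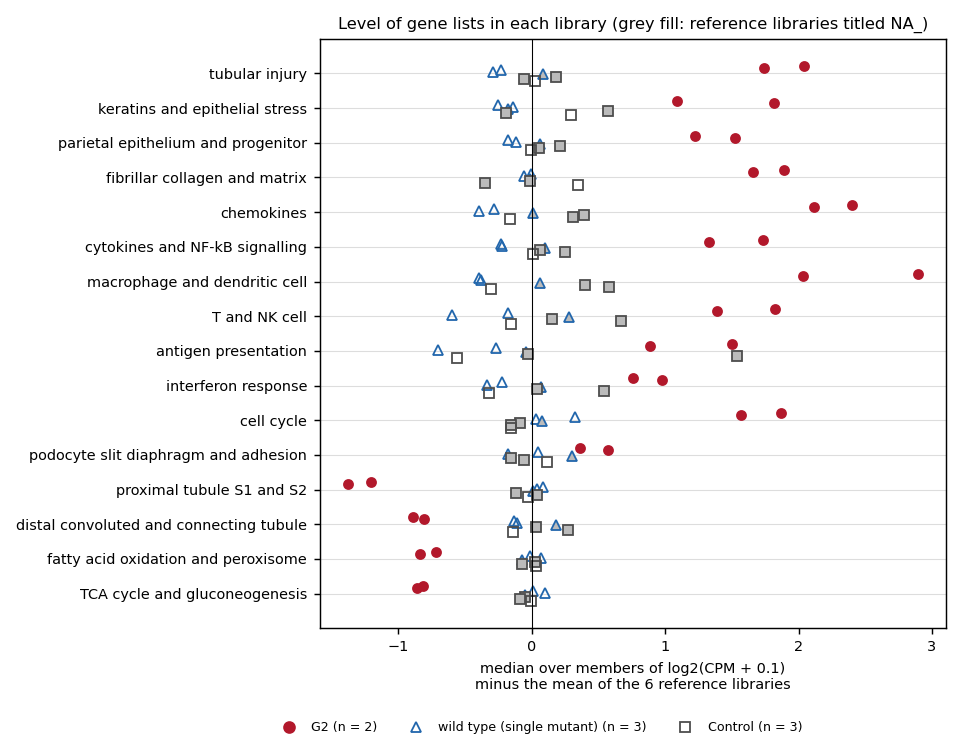
Level of 16 gene lists in each library, as the median over members of log2(CPM + 0.1) minus the mean over the 6 reference libraries. Filled circles are G2, triangles wild type (single mutant) and squares Control, with reference libraries titled NA_ in grey; both G2 circles lie above the reference for injury, matrix, chemokine, macrophage and cell cycle lists and below it for the proximal tubule and metabolic lists, and antigen presentation overlaps.

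Counts of interferon and antigen presentation genes depended on the libraries compared. Interferon response genes were higher for 14 of 34 in the pooled comparison, 21 against wild type (single mutant) and 5 against Control, with 0 lower each time, and they numbered 8 against the NA_ libraries and 23 against those with other titles. In these fits 10.3% and 16.5% of all genes tested were higher, and 7.77% and 13.3% lower. There were 9 without G2 replicate 1, 7 without G2 replicate 2 and 21 without Control replicate 2. Isg15, a ubiquitin-like protein induced by interferon, was at 7.38 and 9.87 CPM in G2 and 2.2 to 4.27 CPM in the reference (log2 fold change 1.45, SE 0.26, adjusted p = 0.00379). The oligoadenylate synthetase Oas1a was at 6.63 and 5.65 CPM in G2 and 1.75 to 2.77 CPM in the reference (log2 fold change 1.41, SE 0.22, adjusted p = 0.00234). Antigen presentation genes were higher for 4 of 22 in the pooled comparison (18.2%, near the 15.1% over all genes tested). They numbered 15 against wild type (single mutant) and 1 against Control, where 10.7% and 9.05% of all genes were higher. Without Control replicate 2 the count was 18, without G2 replicate 1 it was 1, and without any other single library it was 2. Against the NA_ libraries 1 antigen presentation gene was higher, and against those with other titles 19. Cd74, the invariant chain of class II molecules, was at 1766 and 872 CPM in G2, 186, 147 and 302 CPM in wild type (single mutant), and 306, 1838 and 175 CPM in Control. Control replicate 2 thus lay above both G2 libraries. Igtp, an interferon-induced GTPase, was at 183 CPM in that library, where the median of the reference was 17.1 CPM and G2 had 27.3 and 20.9 CPM. H2-K1, a class I heavy chain, was at 713 and 451 CPM in G2 and 194 to 708 CPM in the reference. Its log2 fold change was 1.35 against wild type (single mutant) (adjusted p = 0.017) and 0.45 against Control (adjusted p = 0.536). Complement and coagulation genes were higher for 13 of 31 and lower for 2, with 1 lower without G2 replicate 1 and 0 without G2 replicate 2. C3, the central component of complement, was at 646 and 331 CPM in G2 and 34.7 to 57.6 CPM (median 48.7) in the reference (log2 fold change 3.40, SE 0.24, adjusted p = 0.000155). Cfb, factor B of the alternative pathway, was lower, at 35.5 and 25.2 CPM in G2 and 41.5 to 57.5 CPM in the reference (log2 fold change -0.69, SE 0.16, adjusted p = 0.0118), and did not pass against wild type (single mutant) or the NA_ libraries alone (adjusted p = 0.0674 and 0.065). Acute phase genes were higher for 9 of 22 with 0 lower, and for 5 without G2 replicate 1. Saa1, serum amyloid A, was at 2.54 and 3.34 CPM in G2 and 0 to 0.23 CPM in the reference (log2 fold change 4.85, SE 0.59, adjusted p = 0.000853). Orm2, an acid glycoprotein, was at 6.03 and 1.22 CPM in G2 and 0.0328 to 0.193 CPM in the reference (log2 fold change 5.30, SE 0.61, adjusted p = 0.000703).

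Inflammasome and cell death genes were higher for 22 of 30 members and lower for 1, with a median of 1.20, and 10 were higher without G2 replicate 1. Panx1, a channel that releases ATP, was at 8.6 and 5.96 CPM in G2 and 1.13 to 1.64 CPM in the reference (log2 fold change 2.34, SE 0.20, adjusted p = 0.000228). Casp12, an inflammatory caspase of mouse, was at 12.4 and 7.72 CPM in G2 and 1.5 to 2.54 CPM in the reference (log2 fold change 2.29, SE 0.24, adjusted p = 0.000482). Nlrp3, the sensor of the best-known inflammasome, was at 2.2 and 1.67 CPM in G2 and 0.334 to 0.845 CPM in the reference (log2 fold change 1.81, SE 0.36, adjusted p = 0.00676), though it did not pass against Control alone (adjusted p = 0.0629). Ripk3, the kinase of necroptosis, was at 4.8 and 5.16 CPM in G2 and 0.952 to 1.85 CPM in the reference (adjusted p = 0.00121). Mlkl, its pore-forming target, was at 4.43 and 3.67 CPM in G2 and 0.849 to 1.64 CPM in the reference (adjusted p = 0.0038). Ripk1, the kinase upstream of both, was lower (log2 fold change -0.42, SE 0.11, adjusted p = 0.0225) and passed against neither label alone (adjusted p = 0.0743 and 0.175). Genes of the p53 and senescence list were higher for 4 and lower for 2 of 18 (0 lower without G2 replicate 1 or with library totals), with 0 higher without G2 replicate 1 and 2 without G2 replicate 2 or wild type (single mutant) replicates 2 or 3. Cdkn1a, which encodes the p21 inhibitor of the cell cycle, was at 23.2 and 35.2 CPM in G2 and 5.9 to 43.9 CPM in the reference, so both G2 libraries lay inside the reference range, which had a mean of 30.7 CPM in the NA_ libraries and 11.7 CPM in the others.

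Cell cycle genes were higher for 32 of 37 members, with 1 lower and a median log2 fold change of 1.78. Mki67, the proliferation antigen Ki-67, was at 34.9 and 19.3 CPM in G2 and 3.01 to 5.04 CPM (median 3.69) in the reference (log2 fold change 2.81, SE 0.23, adjusted p = 0.000194). Top2a, the topoisomerase of dividing cells, was at 18.5 and 15.4 CPM in G2 and 2.35 to 3.6 CPM (median 2.87) in the reference (log2 fold change 2.55, SE 0.17, adjusted p = 0.00013). In both the G2 libraries stood clear of all reference libraries. Mcm3, of the replicative helicase, and Cenpf, of the kinetochore, had log2 fold changes of 1.88 and 2.64. Ccnd1, cyclin D1, was the member that fell, at 98.2 and 107 CPM in G2 and 174 to 305 CPM in the reference (log2 fold change -1.26, SE 0.23, adjusted p = 0.00418). Which cells divided was not measured. The letters TTTGAA, the core of the cell cycle homology region of promoters of mitotic genes, occurred on either strand in 14 of 30 cell cycle promoters (46.7%, Wilson 95% interval 30.2 to 63.9%). They occurred in 14.9% of promoters of genes called higher, 12.4% of those of tested genes and 18.1% of all promoters. Other lists had like shares, with 6 of 13 promoters of proximal tubule segment S3 (46.1%) and 11 of 26 of inflammasome and cell death genes (42.3%). Xenobiotic enzymes and organic ion transporters had 7 of 18 (38.9%), and the shares were not tested. Matches are shown in capitals in the 250 bases before the start of the 2 called list members with the lowest p that hold one there.
Top2a, minus strand, chr11:99024190-99024439: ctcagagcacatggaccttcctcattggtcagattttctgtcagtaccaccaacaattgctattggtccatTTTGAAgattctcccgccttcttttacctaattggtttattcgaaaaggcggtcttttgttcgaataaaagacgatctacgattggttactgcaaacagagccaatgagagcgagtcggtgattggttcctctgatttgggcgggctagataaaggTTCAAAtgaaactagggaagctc
Mki67, minus strand, chr7:135716380-135716629: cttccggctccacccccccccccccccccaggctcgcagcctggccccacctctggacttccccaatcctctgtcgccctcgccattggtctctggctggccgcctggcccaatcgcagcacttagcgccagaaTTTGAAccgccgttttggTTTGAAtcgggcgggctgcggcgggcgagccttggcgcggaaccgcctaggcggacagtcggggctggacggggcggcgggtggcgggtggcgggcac

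Proximal tubule genes of segments S1 and S2 fell almost without exception, and a smaller share of those of segment S3 did. Of 30 genes of segments S1 and S2, 28 were lower and 0 higher, where 12.9% of all genes tested were lower, with a median log2 fold change of -1.39. The number lower was 26 against wild type (single mutant) alone and 21 against Control alone. Slc34a1, the main phosphate transporter of the brush border, was at 3022 and 2424 CPM in G2 and 6587 to 8009.9 CPM (median 6991) in the reference (log2 fold change -1.40, SE 0.16, adjusted p = 0.000756). Lrp2 (megalin), the endocytic receptor for filtered protein, was at 828 and 739 CPM in G2 and 1631 to 2109 CPM (median 1806) in the reference (log2 fold change -1.21, SE 0.14, adjusted p = 0.000609). Slc4a4, the basolateral bicarbonate exporter, fell with a log2 fold change of -1.56 (SE 0.12). Both G2 libraries lay far below the lowest reference library for these genes. Slc5a2, the glucose transporter SGLT2, was at 99 and 102 CPM in G2 and 261 to 469.8 CPM in the reference (log2 fold change -1.89, SE 0.23, adjusted p = 0.000928). Slc6a19, a transporter of neutral amino acids, was at 41.5 and 68.5 CPM in G2 and 177 to 338 CPM in the reference (log2 fold change -2.29, SE 0.30, adjusted p = 0.00109). G6pc, the last enzyme of gluconeogenesis, was at 119 and 285 CPM in G2 and 786 to 1098 CPM in the reference (log2 fold change -2.21, SE 0.32, adjusted p = 0.00164), with 2.39 times as much in G2 replicate 2 as in replicate 1. Kap and Amn were the 2 members that did not pass, Kap at 29845 and 13381 CPM in G2 and 14969 to 40201 CPM in the reference. Genes of the later segment S3 were lower for 7 of 16 and higher for 0 (median -0.76), 4 lower without G2 replicate 2, with Slc7a13, an aspartate and glutamate transporter of S3, at 460.5 and 304 CPM in G2 and 591 to 892 CPM in the reference (log2 fold change -1.02, SE 0.21, adjusted p = 0.0072). Against wild type (single mutant) alone Slc7a13 did not pass (adjusted p = 0.0527). Slc5a1, the high-affinity glucose transporter SGLT1 of S3, lay above the reference in both G2 libraries, at 100.4 and 82.9 CPM in G2 and 51.7 to 79 CPM in the reference, and did not pass (adjusted p = 0.0511).

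Among distal segments most distal convoluted tubule genes and fewer genes of the other segments passed. Distal convoluted and connecting tubule genes were lower for 13 of 19 with 0 higher, 8 without G2 replicate 1 and 7 without replicate 2. Slc12a3, the thiazide-sensitive sodium chloride transporter, was at 143 and 143 CPM in G2 and 373 to 720.4 CPM (median 476) in the reference (log2 fold change -1.84, SE 0.27, adjusted p = 0.00183). Klhl3, a regulator of that transporter's kinases, was at 2.57 and 5.11 CPM in G2 and 11.5 to 19.98 CPM in the reference (log2 fold change -1.99, SE 0.32, adjusted p = 0.00255). Pvalb, a calcium-binding protein of the early distal tubule, was at 22 and 31.5 CPM in G2 and 48.7 to 138 CPM in the reference (log2 fold change -1.69, SE 0.46, adjusted p = 0.0251) and did not pass against wild type (single mutant) alone (adjusted p = 0.0793). In the ascending limb 5 of 16 genes were lower and 2 higher, and 2 and 2 with library totals, with 2 lower without G2 replicate 1 and 3 without G2 replicate 2, wild type (single mutant) replicate 1 or Control replicate 1. Umod did not pass (adjusted p = 0.723). Slc12a1, the NKCC2 transporter, was at 468 and 619 CPM in G2 and 609 to 1306 CPM in the reference and did not pass (adjusted p = 0.0703). Egf, the growth factor secreted by this segment, was at 398 and 421 CPM in G2 and 785 to 1263 CPM in the reference (log2 fold change -1.36, SE 0.18, adjusted p = 0.00129). Cldn16, a claudin for magnesium and calcium, rose, at 22.2 and 19.4 CPM in G2 and 6.26 to 9.51 CPM in the reference (log2 fold change 1.47, SE 0.19, adjusted p = 0.000976). Intercalated cell genes were lower for 5 of 16 with 0 higher, and for 3 without G2 replicate 1 or with library totals. Against the NA_ libraries 12 intercalated cell genes were lower, and against those with other titles 5 (medians -0.62 and -0.10). In these fits 7.77% and 13.3% of all genes tested were lower. Atp6v0a4, a subunit of the proton pump, was at 124 and 133 CPM in G2 and 309 to 342 CPM (median 328) in the reference (log2 fold change -1.34, SE 0.09, adjusted p = 0.00013). Slc4a1, the chloride and bicarbonate exchanger of alpha cells, was at 17.7 and 20.6 CPM in G2 and 42.5 to 62.7 CPM in the reference (log2 fold change -1.37, SE 0.17, adjusted p = 0.000972). Collecting duct principal cell genes were higher for 2 and lower for 3 of 13 (15.4% and 23.1%, where all genes gave 15.1% and 12.9%), and 2 and 1 with library totals. Without G2 replicate 1 the number lower was 1, and without any 1 of 6 libraries, all but G2 replicate 1 and wild type (single mutant) replicate 3, the number higher was 1. Aqp2, the vasopressin-regulated water channel, was at 241 and 989 CPM in G2 and 242 to 623 CPM in the reference, so the G2 libraries lay at or beyond opposite ends of the reference range.

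Regulators that maintain tubule identity were lower for 11 of 23 and higher for 0, and for 7 without G2 replicate 1. With library totals 7 were lower and 3 higher. Besides Ppara, Ppargc1a, a coactivator of mitochondrial biogenesis, was at 30.3 and 38.6 CPM in G2 and 62.7 to 91.9 CPM in the reference (log2 fold change -1.09, SE 0.17, adjusted p = 0.00196). Hnf4a, the nuclear receptor that maintains proximal tubule genes, was at 493 and 364 CPM in G2 and 736 to 1062 CPM in the reference (log2 fold change -1.14, SE 0.17, adjusted p = 0.00197). Its paralogue Hnf4g was at 1.57 and 1.62 CPM in G2 and 4.19 to 7.84 CPM in the reference (log2 fold change -1.86, SE 0.25, adjusted p = 0.0013). Lhx1, a homeobox factor of nephron development, was at 7.66 and 6.88 CPM in G2 and 15.2 to 19.7 CPM in the reference (log2 fold change -1.25, SE 0.14, adjusted p = 0.000664).

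Oxidative metabolism fell with the tubule genes. Fatty acid oxidation and peroxisome genes were lower for 25 of 36 with 0 higher and a median of -0.78, and for 15 without G2 replicate 2. Acadvl, which starts the oxidation of very long chain fatty acids, was at 101 and 118 CPM in G2 and 224 to 249 CPM (median 233) in the reference (log2 fold change -1.11, SE 0.10, adjusted p = 0.000241). Cpt1a, the gate for entry of fatty acids into mitochondria, was at 195 and 254 CPM in G2 and 373 to 457 CPM in the reference (log2 fold change -0.87, SE 0.14, adjusted p = 0.00259). Nuclear genes of the respiratory chain were lower for 17 of 32 with 0 higher (median -0.45) and for 6 without G2 replicate 2 (11 lower and 1 higher with library totals), while 0 of the 8 tested genes encoded in mitochondrial DNA passed (median -0.34). Ndufs1, a core subunit of complex I, was at 164 and 176 CPM in G2 and 336 to 386 CPM in the reference (log2 fold change -1.08, SE 0.10, adjusted p = 0.000257). The mitochondrial subunit gene mt-Co1 was at 20403 and 14682 CPM in G2 and 21405 to 29829.5 CPM in the reference (adjusted p = 0.121). Citric acid cycle and gluconeogenesis genes were lower for 19 of 22 and higher for 1. Fbp1, fructose bisphosphatase, was at 582 and 574 CPM in G2 and 1221 to 1563 CPM in the reference (log2 fold change -1.24, SE 0.13, adjusted p = 0.000446). Pck1, the enzyme that commits oxaloacetate to glucose, was at 1414 and 1545 CPM in G2 and 3558 to 5706 CPM in the reference (log2 fold change -1.57, SE 0.24, adjusted p = 0.00205). Glycolysis genes were lower for 6 of 21 and higher for 2 (median -0.26), and 2 and 2 with library totals. Their median with library totals was 0.04, where the median of all genes was 0.28. Amino acid and urea metabolism was lower for 17 of 22 and higher for 1, and lower for 8 without G2 replicate 2. Prodh, proline dehydrogenase, was at 122 and 101 CPM in G2 and 335 to 446 CPM in the reference (log2 fold change -1.78, SE 0.15, adjusted p = 0.000224). Ass1, which makes argininosuccinate, was at 612 and 497 CPM in G2 and 1327 to 2049 CPM in the reference (log2 fold change -1.59, SE 0.19, adjusted p = 0.000756). The exception was Arg2, the mitochondrial arginase, at 22.3 and 17.7 CPM in G2 and 4.58 to 6.79 CPM in the reference (log2 fold change 1.81, SE 0.16, adjusted p = 0.000247). Xenobiotic enzymes and organic ion transporters were lower for 12 of 24 with 0 higher.

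Organelle and stress pathways moved less, and their counts depended on scaling. Over all genes tested 15.1% were higher and 12.9% lower. With library totals these shares were 29.3% and 5.36%, and the median log2 fold change of all genes was 0.28. The counts and medians with library totals below are to be read against those values. Of the sterol genes described below, 16.7% were higher and 20.8% lower. Autophagy and mitophagy genes were lower for 10 of 29 and higher for 1 (median -0.20), and 5 and 5 with library totals (median 0.07). The number lower without G2 replicate 1 was 5. Atg9a, the membrane protein that seeds autophagosomes, was at 10.9 and 16.7 CPM in G2 and 27.1 to 37.7 CPM in the reference (log2 fold change -1.25, SE 0.19, adjusted p = 0.00221). Pink1, the kinase that marks damaged mitochondria, was at 281 and 206 CPM in G2 and 394 to 501 CPM in the reference (log2 fold change -0.90, SE 0.14, adjusted p = 0.00235). Map1lc3b, which encodes the membrane mark LC3B, was at 133 and 117 CPM in G2 and 133 to 146 CPM in the reference. The cargo receptor Sqstm1 was at 621 and 464 CPM in G2 and 588 to 679 CPM in the reference, and neither gene passed. Lysosome genes were lower for 9 of 24 and higher for 2, with library totals 2 lower and 8 higher, and 3 lower without G2 replicate 2, while the number higher was 0 without G2 replicate 1. Unfolded protein response genes were lower for 4 of 27 (14.8%, near the 12.9% over all genes) and higher for 2 (7.41%, below 15.1%). With library totals the counts were 3 and 2. The chaperone Hspa5 was at 754 and 578 CPM in G2 and 757 to 1275 CPM in the reference and was not called. The number of these response genes that were lower was, without G2 replicate 1, 2. Genes of oxidative stress defence were lower for 6 of 25 with 0 higher, 3 lower and 3 higher with library totals, and 3 lower without G2 replicate 2. Gpx3, the secreted glutathione peroxidase made by proximal tubule, was at 13247 and 10857 CPM in G2 and 24239 to 33097 CPM in the reference (log2 fold change -1.24, SE 0.20, adjusted p = 0.00279), and did not pass against wild type (single mutant) alone (adjusted p = 0.0543). Nqo1, a target of the stress regulator NRF2, was at 53.9 and 58.8 CPM in G2 and 41.5 to 75.6 CPM in the reference and not called. Sterol genes were lower for 5 and higher for 4 of 24 (2 and 4 with library totals), and the number lower was 1 without G2 replicate 1. Without G2 replicate 2 it was 2, with 2 higher, and without any 1 wild type (single mutant) library it was 3. Apoe, which carries lipids and is abundant in macrophages, was at 1108 and 713 CPM in G2 and 115 to 518 CPM in the reference (log2 fold change 1.75, SE 0.44, adjusted p = 0.0182), and did not pass against Control alone (adjusted p = 0.0776). The mouse Apol family, relatives of the human gene, had 5 of 14 members with enough counts to be tested and 0 called. Apol9a was at 0.785 and 0.753 CPM in G2 and 0.424 to 1.64 CPM in the reference. Apol6 was at 0.345 and 1.27 CPM in G2 and 0.0984 to 4.67 CPM in the reference. Cytosolic ribosomal protein genes took 2.67% and 2.28% of the counts of the G2 libraries and 1.40% to 1.81% in the reference. Against the NA_ libraries 0 of the 21 listed were higher, and against those with other titles 13. In these fits 10.3% and 16.5% of all genes tested were higher. Of 21 listed 8 were higher with 0 lower, 21 with library totals, 5 against wild type (single mutant) and 0 against Control, 0 without G2 replicate 1, 13 without G2 replicate 2, and 5 without any 1 of the wild type (single mutant) libraries or Control replicate 3.

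Hormone and growth factor genes of the kidney changed on both sides, and many were not called. Phosphate and calcium hormone genes were lower for 6 of 13 and higher for 2. Renin and vascular tone genes were higher for 3 of 17 (17.6%, near the 15.1% over all genes) and lower for 1, with fewer higher without G2 replicate 1. EGF and Wnt genes were higher for 8 of 24 and lower for 1. Their number higher was smaller without either G2 library, and 13 with library totals. Kl, the co-receptor of FGF23 made by tubules, was at 291 and 259 CPM in G2 and 531 to 773 CPM (median 617) in the reference (log2 fold change -1.20, SE 0.15, adjusted p = 0.00101). Slc34a3, a phosphate transporter, was at 13.1 and 15.4 CPM in G2 and 42.7 to 75 CPM in the reference (log2 fold change -2.08, SE 0.27, adjusted p = 0.00107). Edn1, the vasoconstrictor endothelin-1, was at 15.9 and 13.4 CPM in G2 and 1.61 to 4.46 CPM in the reference (log2 fold change 2.34, SE 0.33, adjusted p = 0.0015). Ren1, renin, lay below all reference libraries, at 43.1 and 50.9 CPM in G2 and 58.2 to 209 CPM in the reference, and did not pass (adjusted p = 0.0684). Wnt4, a Wnt ligand of tubule development and injury, was at 13.3 and 52.2 CPM in G2 and 1.43 to 6.56 CPM in the reference (log2 fold change 3.19, SE 0.58, adjusted p = 0.00441), with a call lost against Control alone (adjusted p = 0.0599). Areg, an EGF receptor ligand, was at 1.13 and 0.848 CPM in G2 and 0 to 0.372 CPM in the reference (log2 fold change 3.45, SE 0.89, adjusted p = 0.0203), and did not pass against Control or the NA_ libraries alone (adjusted p = 0.0763 and 0.102). The receptor Egfr was at 51.3 and 63.3 CPM in G2 and 54.5 to 77.5 CPM in the reference and was not called. Red cell transcripts were lower for 4 of 9 and higher for 1, with 1 lower without G2 replicate 1. Alas2, the erythroid enzyme that begins heme synthesis, was at 1.85 and 3.77 CPM in G2 and 9.71 to 28.4 CPM in the reference (log2 fold change -2.71, SE 0.49, adjusted p = 0.00421). The beta-globin Hbb-bs was at 41.7 and 90.1 CPM in G2 and 119.9 to 408 CPM in the reference (log2 fold change -1.97, SE 0.53, adjusted p = 0.0241), without a call against wild type (single mutant) alone (adjusted p = 0.0669). Near-identical globin genes can share reads, and the amount of blood left in each kidney was not measured. Male-biased kidney genes were lower for 7 of 16 with 0 higher (4 without G2 replicate 1 and 2 without replicate 2, 4 with library totals), among them Cyp4a12a, a fatty acid hydroxylase, at 104 and 91.9 CPM in G2 and 262 to 570.0 CPM in the reference (log2 fold change -2.02, SE 0.33, adjusted p = 0.00266). Female-biased genes were 1 higher and 1 lower of 10 (10% each, where all genes gave 15.1% and 12.9%). Clock genes gave 4 lower of 19, 0 without G2 replicate 1 and 1 without replicate 2, and 2 with library totals. Against the NA_ libraries 3 clock genes were lower and 0 higher, with a median log2 fold change of -0.07. Against those with other titles 10 were lower and 1 higher, with a median of -0.79. In these fits 7.77% and 13.3% of all genes tested were lower. Hlf, a transcription factor of the same rhythm as Dbp, was at 80.5 and 86.9 CPM in G2 and 109 to 219 CPM in the reference (log2 fold change -1.14, SE 0.25, adjusted p = 0.0101), and was not called against wild type (single mutant) or the NA_ libraries alone (adjusted p = 0.0629 and 0.052).

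The 2 G2 libraries differed from each other by over 2-fold for 224 of the 4888 called genes (4.58%), 126 higher in replicate 1 and 98 higher in replicate 2. A single pair has no replicate, so these are values without a test. Among called genes with at least 5 CPM on average in G2, those most in excess in replicate 1 were Fgg, Ccl22, Foxj1, Havcr1, Ptafr, Slc7a2, Cd300c2 and Sox9. Fgg, a fibrinogen chain, was at 68.8 and 19.6 CPM, 3.51 times as much in replicate 1, with 4.33 to 15.1 CPM in the reference. Those most in excess in replicate 2 were Nfe2l3, Tnfrsf19, Fxyd4, Wnt4, Clca3a2, Zfp871, Krt15 and Epha7. Nfe2l3, Tnfrsf19, Fxyd4, Zfp871, Krt15 and Epha7 were called against neither label alone. Nfe2l3, a transcription factor, was at 1.57 CPM in replicate 1, inside the reference range of 1.0 to 2.89 CPM, and at 18.1 CPM in replicate 2. Fxyd4, a sodium pump modulator of collecting duct, was at 41.5 and 199.6 CPM, with 26 to 50.7 CPM in the reference, and without replicate 2 its log2 fold change was -0.01. Urothelial markers, of the lining of the renal pelvis, differed in the same direction: their summed level was 27.8 CPM in replicate 1, 193 CPM in replicate 2 and 26.7 to 64 CPM in the reference. Upk3a, a uroplakin, was at 3.01 and 37.4 CPM in G2 and 5.51 to 13.1 CPM in the reference. Krt5, a basal keratin, was at 2.23 and 18.2 CPM in G2 and 1.29 to 7.31 CPM in the reference. Of the 9 urothelial genes 1 was called, Krt20, at similar levels in both G2 libraries, while 6 were higher without replicate 1, and without replicate 2 1 was higher and 3 were lower. The fat cell transcript Adipoq also differed, with 0.314 and 9.23 CPM in G2 and 0.492 to 34.3 CPM in the reference. The part of pelvic or fat tissue in the genes high in replicate 2 was not tested. For the injury, matrix and proximal tubule lists both G2 libraries lay outside the reference range, as the plot of list levels shows.

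**Figure D5:**
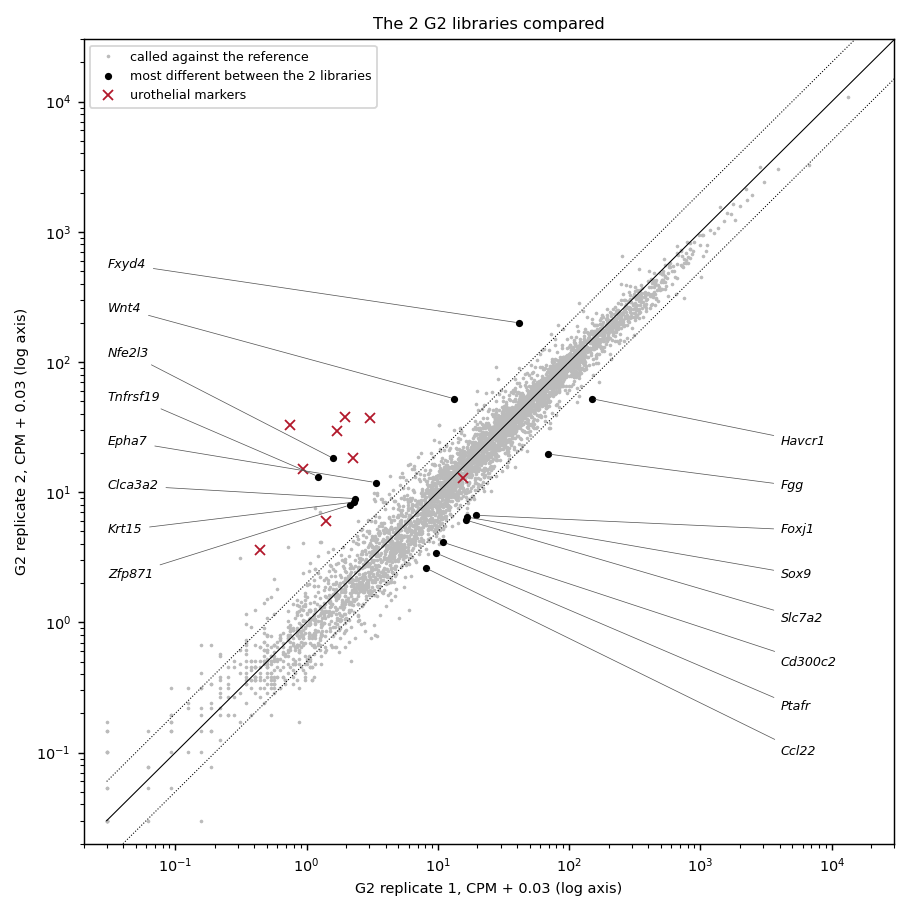
CPM in G2 replicate 1 (horizontal) against G2 replicate 2 (vertical) on log axes for the 4888 genes called against the reference, grey for most genes. Labelled black points are the 8 genes most in excess in each library among called genes of at least 5 CPM; crosses are urothelial markers, most of which lie above the diagonal line of equal levels, and dotted lines mark a 2-fold difference.

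Some genes were called against one reference label and not the other, and none of them was called by edgeR between the labels themselves. Kirrel2, a slit diaphragm protein whose gene lies next to Nphs1, was at 4.74 and 5.11 CPM in G2, 0.167, 0.25 and 0.197 CPM in wild type (single mutant), and 5.61, 8.71 and 2.12 CPM in Control. The G2 values lay within the Control range, and the log2 fold change was 4.60 against wild type (single mutant) (adjusted p = 0.00577) and -0.13 against Control (adjusted p = 0.893). Nr4a1, an immediate early nuclear receptor, was at 6.25 and 6.38 CPM in G2, between 2.79 to 3.47 CPM in wild type (single mutant) and 9.99 to 21.9 CPM in Control. The log2 fold change was 1.04 against the first label (adjusted p = 0.0274) and -1.20 against the second, which did not pass (adjusted p = 0.0798). Immediate early genes as a list gave 6 higher of 22 in the pooled comparison, 13 against wild type (single mutant) and 3 against Control, and 2 without either 1 of the G2 libraries and 11 with library totals, with Fos at 5.18 and 3.74 CPM in G2 and 0.767 to 11.6 CPM in the reference. The immunoglobulin segments Iglv2 and Ighv3-4 were called lower against Control and had too few counts to be tested against wild type (single mutant). Ighv3-4 had 0 counts in G2 and 0.473, 0.98 and 1.5 CPM in Control, and Iglv2 had 3 counts in G2 and 1.45, 1.36 and 0.617 CPM in Control. Segments of this family can share reads with near-identical copies.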

How the data were processed

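Kidneys were frozen, total RNA was reverse transcribed from oligo-dT primers, and libraries were sequenced as single reads of 100 bases, per the labels' protocols. The deposited files hold raw read counts per gene, with no normalization by the authors; CASAVA 1.8.2, FastQC, Trim Galore, STAR 2.4.1d, HTSeq 0.6.1 and the build GRCm38 are listed in the submitters' processing notes, and the strand setting is not given in the sources used here. Of 46517 gene identifiers 46005 were matched to a symbol, and 512 were not. No 2 libraries agreed within sampling noise, the closest pair having a chi-square of 26.2 per gene.

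The 2 G2 libraries were compared with the 6 reference libraries in edgeR 4.0.16 (R 4.3.3) with TMM factors, genes kept by filterByExpr at a minimum count of 10, a quasi-likelihood test and Benjamini-Hochberg adjustment over all genes tested. Standard errors are the log2 fold change divided by the square root of the F statistic. A gene was called at an adjusted p under 0.05. In counts simulated from these libraries, 86% of genes changed 4-fold and 46% of those changed 2-fold were called, with 8 false calls among 17463 genes. Only 100 genes were changed by each fold there, up or down, and G2 was given the spread of the reference. With so few changes and no shift in scaling, the simulation cannot measure false calls in the real comparison. DESeq2 1.42.0, limma-voom (limma 3.58.1), other scalings and filters, each reference label or title set alone, and leaving out each library were alternatives; fits by title set were added after seeing the data. With 1 G2 library left, it is assumed to vary like the reference. Ratios of genes with 3 counts or fewer in a group carry counting error only.

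The comparison, the 59 gene lists and the tests were chosen with earlier results of these data known. The text names the 12 largest rises and falls (called, at least 1 CPM on average, no overlap, called against each label), up to 4 members of a list with the lowest p in its main direction, defining markers that did not pass, the 8 called genes most different between the G2 libraries each way, and up to 4 genes called against 1 label. Named outside this rule, after their values were seen, were Acta2, Apoe, Areg, Arg2, Ccl5, Ccnd1, Cfb, Cldn16, Clic5, Col3a1, Col4a4, Cpt1a, Dnah9, G6pc, Hnf4a, Il1b, Lamc1, Mlkl, Nfkb2, Nid1, Nlrp3, Pck1, Pvalb, Ripk1, Ripk3, Slc5a2, Slc6a19, Spp1, Timp3 and Tnf. Promoter windows of 27025 symbols came from RefSeq (GRCm38.p6), and 17 of the 24 genes with the largest changes have one. Results of some genes are not reported here.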

Additional observations from a re-analysis of the deposited data

Results flagged for a closer look

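Among 192 named genes, 10 had 1 reference library far from the other 5 (the gap to its nearest neighbour, over the range of log2(CPM + 0.1), was above Dixon's 95% critical value for 6 samples). Chance alone marks about 1 in 20 such groups. Control replicate 2 was high for Cd74 (1838 CPM, others 147 to 306), H2-K1 (708 CPM, others 194 to 303) and Igtp (183 CPM, others 14.8 to 28.8). Control replicate 1 was high for Lif (0.676 CPM, others 0.386 to 0.455) and Areg (0.372 CPM, others 0 to 0.0700). Wild type (single mutant) replicate 1 was high for Alb (194 CPM, others 8.55 to 21.3), and replicate 2 of that label was low for Vcam1 (6.01 CPM, others 12.04 to 14.9). Wild type (single mutant) replicate 3 was low for Hlf (109 CPM, others 171 to 219) and Hnf4a (736 CPM, others 940 to 1062) and high for Tcf21 (16.7 CPM, others 7.54 to 10.04). The groups of 2 G2 libraries and of 3 libraries per label are too small for this check.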

How the results depend on the processing

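Against the pooled counts of 2631 higher and 2257 lower genes, Control alone as the reference gave 1548 and 962, wild type (single mutant) alone gave 1106 lower, the NA_ libraries alone gave 1335 lower, and library totals gave 5112 and 936. Leaving out 1 library gave 1592 to 2585 higher and 1142 to 2152 lower, with fewer samples in each fit. Calls against each label separately, 1218 higher and 740 lower, became 2151 and 343 with library totals and 1581 lower with DESeq2's Wald test, and ranged from 0 to 1246 and from 0 to 758 when 1 library was left out. Between the reference labels DESeq2 called 2 higher and 8 lower, and leaving out a library gave 0 to 1 in each direction. The number of lists with a median above that of all genes was 29 to 30 in the leave-one-out fits. Of promoters of genes that changed at least 2-fold, 17.8% of those called higher and 17.7% of those called lower held TTTGAA. It was held by 18.1% of all promoters and 12.4% of those of tested genes. Within 1.5 times of the pooled counts were the remaining alternatives, among them limma-voom (2892 and 2295) and no filter on low counts (2493 and 1816).

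Of 144 named genes that were called, 110 kept the call in each of 21 alternatives in which they were tested, 22 lost it against Control alone, 17 against wild type (single mutant) alone, 21 without G2 replicate 1 and 15 without G2 replicate 2. Many of the named genes were chosen by low p or by calls against each label, so these counts do not stand for called genes at large. Of all pooled calls, 46.3% of the higher and 32.8% of the lower genes were called against each label separately. Without G2 replicate 2 the log2 fold change changed sign for Fxyd4, Nfe2l3 and Tnfrsf19, which ranged from -0.011 to 2.24, from -0.044 to 3.46 and from -0.42 to 3.02 when 1 library was left out. Nr4a1 changed sign against wild type (single mutant) alone (1.04). Of 48 named genes that did not pass, 26 changed sign in some alternative and 22 passed in some. List medians relative to all genes changed sign without G2 replicate 2 for lysosome (leave-one-out range -0.39 to 0.098), cholesterol and sterol (-0.23 to 0.026, above 0 also without Control replicate 3) and urothelium (-1.52 to 1.91). The median of p53 and senescence was -0.044 against Control alone and -0.051 against the NA_ libraries. The cause of these changes was not tested.

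No paired analysis was possible because the replicate numbers follow the order of the samples and pair no libraries. With 2 G2 libraries the estimate of spread comes mainly from the reference, and changes of 2-fold were often missed in simulated counts. At these depths 3 counts correspond to 0.0862 and 0.103 CPM in the G2 libraries, which limits values of genes near 0.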
